A study of Mus musculus with 4 samples.

Results

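Probes for 8 genes that control the transcription factor SREBP2 or move cholesterol into and through the cell were examined: *Srebf2*, *Scap*, *Insig1*, *Insig2*, *Mylip*, *Stard4*, *Npc1* and *Soat2*. Their probes were taken by gene name from the array annotation, and every probe was kept whatever its values. The genes themselves were chosen with earlier results of these data known. They have 12 of the 55681 non-control probes of the annotation and 8 of its 36161 names. Liver RNA of microsomic (M) mice, which are naturally small at birth, and of control (C) mice was measured on 4 Agilent mouse arrays read in 1 colour. These are 1 array of microsomic females (MF), 1 of control females (CF), 1 of microsomic males (MM) and 1 of control males (CM). The sample labels describe all 4 as whole liver of C57BL/6J mice at embryonic day 20, and name no treatment or engineered allele. The study's methods instead describe newborn C57BL/6 N mice, and define M by a low birth weight for the gender and C as littermates of near average weight. The same methods state several replicate experiments per group, whereas 1 array per group was analysed here. Whether animals were pooled on an array is not stated.

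SREBP2, made from *Srebf2*, is a transcription factor that sits in the membrane of the endoplasmic reticulum together with its escort SCAP. When sterols are low, SCAP carries SREBP2 to the Golgi apparatus, where proteases release the active part, which turns on the genes of cholesterol synthesis and uptake. When sterols are high, the retention proteins INSIG1 and INSIG2 hold SCAP back. The liver is the main organ in which whole-body cholesterol is made, taken up and sent into bile.

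The largest differences were those of the females. *Insig1*, itself a known target of SREBP2, had a 10.1-fold higher signal in MF than in CF, while *Insig2*, the other retention protein, had a 4.78-fold and a 4.71-fold lower signal on its 2 probes. *Srebf2*, *Insig1* and *Stard4* each had at least 1 probe that was higher by more than 1.5-fold on the microsomic arrays of both genders. *Stard4* encodes a carrier of cholesterol between membranes. Of the male calls, that of *Insig1* was lost with normexp background correction and quantile normalization (0.47 on the log2 scale). That of *Srebf2* was lost with quantile normalization alone (0.58). Both *Stard4* probes were called in both genders in each of the 9 other settings tried, but several of these could not end a higher call. The settings on dim probes and flagged spots left the values of these genes unchanged, and median centring or no scaling raised every difference. In males neither *Insig2* probe passed 1.5-fold, although the dimmer one was lower past it in 3 of the other settings. No group has a replicate array, so no difference between a pair of arrays has an error or a p-value.

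Every level below is the log2 processed signal relative to the 75th percentile of its array, so that 0 marks that percentile, and a difference is called higher or lower when it passes 1.5-fold (0.585 on the log2 scale). Signals of different probes are not on a common scale, and were set against each other only to pick the brightest probe of a gene and to sum marker lists. Between 56.1% and 65.3% of the non-control spots of an array were well above background, as were all 12 probes on every array. Each of the 12 probes was printed at a single spot. For other probes, printed at 10 spots, the difference between arrays had an SD between spots of 0.41 in MF minus CF and 0.52 in MM minus CM, which covers only the error within arrays. The M arrays lie in one column of the slide and the C arrays in another, so column and condition cannot be told apart.

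The label liver was checked with 9 hepatocyte genes, all 9 of which gave a signal well above background on every array. Their median levels lay between 8.90 and 9.46, and their summed signal, in multiples of the 75th percentile, between 3695 on MM and 5918 on MF. In MF vs CF 2 of them were higher and 2 lower, and in MM vs CM 1 was higher and 3 lower. The largest of these differences was that of *Tdo2*, lower by 3.74 in MF than in CF. Genes of other tissues differed in level between the arrays. Of 14 genes of the intestinal epithelium, 13 were well above background on MF against 7 on either control array and 8 on MM, and 11 were higher in MF than in CF. Their summed signal, in multiples of the 75th percentile, was 258 on MF and between 128 and 141 on the other arrays, a sum in which *Tff3* weighs most, with levels of 7.40 on MF and 7.05 on CF. The median difference of the 13 genes measured in MF vs CF was 4.68, lower bounds included, and *Cdx2*, *Cdh17*, *Alpi* and *Slc5a1* were well above background on MF and on no other array. Of 8 macrophage genes, 7 were higher in MF than in CF, with summed signals of 262 on MF, 130 on MM and 106 on each control array. Of 7 heart muscle genes, 6 were lower in MF than in CF, with a summed signal of 114 on CF and between 2.39 and 5.16 on the other arrays. The summed signal of 10 erythroid genes lay between 457 on MM and 879 on MF, that of 7 cholangiocyte genes between 8.10 and 13.1, and that of 7 genes of the exocrine pancreas between 2.38 and 4.80. In MM vs CM, 5 genes of the exocrine pancreas were lower and 0 higher. For heart muscle 4 were lower and 1 higher there, and for the intestinal epithelium 3 were lower and 2 higher. These lists bear on every comparison below, and their part in the results was not tested. In whole liver, fewer cells of a type and less RNA per cell cannot be told apart.

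In MF vs CF, 6 of the 12 probes, of 4 genes, were higher and 4 were lower. Among all probes measured, 19.1% were higher and 22.3% were lower. The median difference of the 12 probes was 0.62, against -0.14 over all probes. In MM vs CM, 6 probes, of 5 genes, were higher and 0 were lower, where 17.9% of all probes were higher and 23.3% lower. The median of the 12 probes was 0.38 in males, against -0.07 over all probes. With quantile normalization 5 probes were higher and 1 was lower in males. The male split was 4 and 1 with normexp and quantile normalization, and 6 and 1 with the trend in probe GC content removed. In females the split of 6 higher and 4 lower was 7 and 3 in the deposited values without scaling. It was 5 and 4 in females with normexp and quantile normalization. Leaving out the scaling raises every difference by 0.40 in females and 0.56 in males, and centring on the median of each array raises them by 0.10 and 0.24. Without scaling the male differences of *Scap*, *Npc1*, the dimmer *Srebf2* probe and the dimmer *Insig2* probe, which were negative and not called, are positive, and the brighter probes of *Insig2* (0.68) and *Mylip* (0.64) pass 1.5-fold in males. Of the 12 probes, 4 were higher in both genders, 1 of *Srebf2*, 1 of *Insig1* and both of *Stard4*, beside a share of 3.05% among all probes measured in both comparisons. In 5 probes the differences had opposite sign in the 2 genders. These were the dimmer probe of *Srebf2*, the probe of *Scap*, the brighter probe of *Insig2* and both probes of *Mylip*. Some of these differences were near 0, as in males for the dimmer *Srebf2* probe (-0.03) and the brighter *Mylip* probe (0.08). The share of all probes with opposite signs was not computed, so this count is not read as a trait of these genes.

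**Figure D1:**
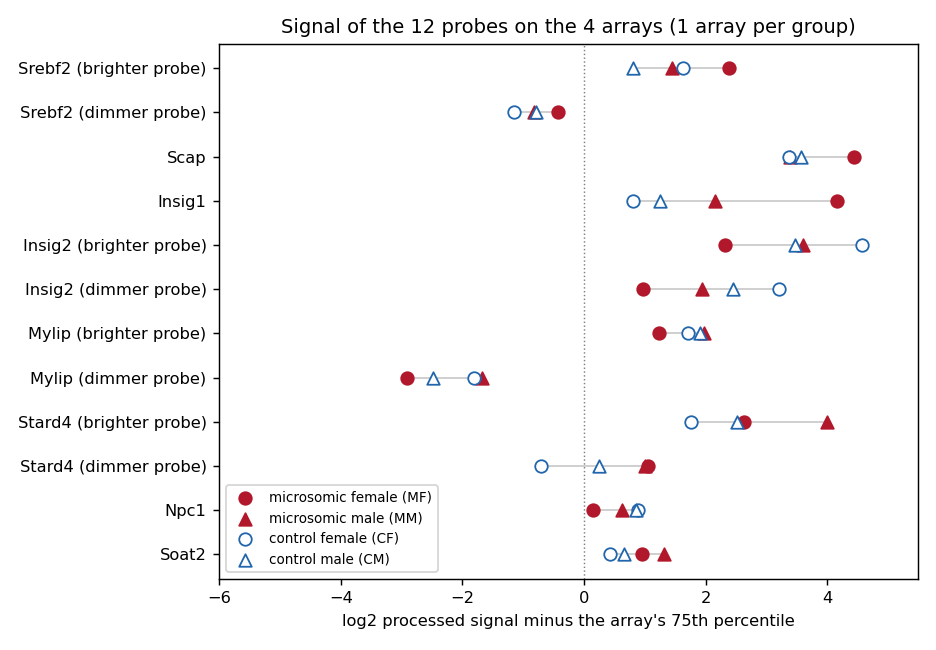
Level of each of the 12 probes (rows) on the 4 arrays, in log2 units relative to the 75th percentile of each array; filled symbols are microsomic, open symbols control, circles female and triangles male, and the grey line joins the lowest and highest array. *Insig1* runs from 0.81 on CF to 4.15 on MF, and both probes of *Insig2* are lowest on MF and highest on CF.

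No test was possible within a gender, so limma was fitted to the 4 arrays together, with condition and gender as terms. This fit has 1 residual degree of freedom and treats the genders as replicates, over the 25045 probes well above background on all arrays. It called 0 probes at a Benjamini-Hochberg adjusted p under 0.05 (0.0%), with a smallest adjusted p of 0.655 over all probes and of 0.998 over the 12. The unadjusted limma p was under 0.05 for 1125 probes (4.49%), 4 of them among the 12. These 4 were the *Insig1* probe, both *Stard4* probes and the dimmer *Insig2* probe. Without the gender term limma also called 0 probes, with 641 at an unadjusted p under 0.05.

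The sequence upstream of *Srebf2* and *Insig1* is shown because both genes are classic targets of SREBP2. Both also had a probe that was higher on the microsomic arrays of both genders. The limits on the male calls given above apply, and for *Srebf2* this held on 1 of its 2 probes only. The windows are the 250 bases before the transcription start on GRCm38.p6 from RefSeq, chr15:82147019-82147268 for *Srebf2* and chr5:28071162-28071411 for *Insig1*, both on the plus strand. Capitals mark the letters of the core of the sterol regulatory element bound by SREBP (TCACCCCA), the box bound by NF-Y, a partner of SREBP (CCAAT, here on the minus strand as ATTGG), and the E-box (CACGTG), to which SREBP can also bind.
Srebf2: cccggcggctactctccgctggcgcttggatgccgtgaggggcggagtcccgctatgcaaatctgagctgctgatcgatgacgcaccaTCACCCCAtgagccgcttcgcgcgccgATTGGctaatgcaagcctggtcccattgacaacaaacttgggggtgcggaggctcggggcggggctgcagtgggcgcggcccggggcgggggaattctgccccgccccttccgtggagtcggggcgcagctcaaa
Insig1: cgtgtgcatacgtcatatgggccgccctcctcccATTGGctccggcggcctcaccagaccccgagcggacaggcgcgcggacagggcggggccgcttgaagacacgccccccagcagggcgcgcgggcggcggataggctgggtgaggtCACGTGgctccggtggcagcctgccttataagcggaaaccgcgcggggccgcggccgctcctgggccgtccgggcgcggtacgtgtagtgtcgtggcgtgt
Both strands were searched over windows from 250 bases before to 50 bases after each start. The *Srebf2* window held TCACCCCA between 162 and 155 bases before the start and ATTGG between 135 and 131 bases before it. Of all 32851 promoter windows of this length, 1.56% held TCACCCCA and 4.36% held TCACNCCA, where N is any base. The *Insig1* window held ATTGG between 216 and 212 bases before the start and CACGTG between 101 and 96 bases before it, letters found in 37.4% and 7.15% of all windows, respectively, and TCACCCCA was not among its letters. Windows were found for 5 of the 8 genes, which were *Srebf2*, *Scap*, *Insig1*, *Insig2* and *Mylip*. TCACCCCA was in the window of *Srebf2* alone among these 5. CCAAT was also in windows of *Insig2* and *Mylip*, which had lower probes in MF, and CACGTG in those of *Scap*. A match of letters is a description and not a binding site.

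*Srebf2* has 2 probes on chromosome 15 of mm9, the build of the array annotation. The brighter probe, A_51_P377508 (chr15:82034765-82034824), had levels of 2.38 on MF against 1.62 on CF, and 1.44 on MM against 0.80 on CM. Each microsomic array was above the control array of its gender, by 0.76 in females (1.69-fold) and by 0.65 in males (1.56-fold; 0.58, not called, with quantile normalization). MM lay below CF, so the M and C arrays overlapped. The difference between the genders was as large: CM was lower than CF by 0.83, and MM lower than MF by 0.94, both called. The dimmer probe, A_55_P2000487 (chr15:82030068-82030127), had levels of -0.43 on MF against -1.14 on CF, and -0.83 on MM against -0.79 on CM. It was higher in females by 0.71 (1.64-fold), close to the brighter probe, though not with normexp and quantile normalization (0.53), and the difference in males was -0.03. The 2 probes thus differed from each other by 0.04 in MF minus CF and by 0.68 in MM minus CM. Over 2952 genes with 2 measured probes, the median gap between the probes of a gene was 0.43 in females and 0.44 in males, and 65.0% and 60.7% of the pairs, respectively, had the same sign.

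*Scap* encodes the sterol-sensing escort of SREBP2. Its probe, A_52_P485971 (chr9:110287280-110287339), had levels of 4.44 on MF against 3.36 on CF, and 3.38 on MM against 3.57 on CM. MF stood above the other arrays, which lay within 0.21 of each other, and the difference from CF was 1.08 (2.11-fold). In males the difference was -0.19. With background correction by normexp and quantile normalization the female difference was 0.45, which is not called. This probe holds 7 windows of 5 bases rich in C or T. Probes with 4 or more such windows had a median difference of -0.08 in females and -0.44 in males, against -0.15 and 0.03 for probes with none, and the part of this in the *Scap* value was not tested.

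*Insig1* had the largest difference of the 12 probes in females. Its probe, A_51_P290207 (chr5:28404246-28404305), had processed signals of 15891 on MF against 1186 on CF, and 4099 on MM against 1496 on CM, which correspond to levels of 4.15, 0.81, 2.15 and 1.25. Both microsomic arrays lay above both control arrays, and the microsomic arrays also lay far apart, with MM lower than MF by 2.01 (4.02-fold). The female difference of 3.34 (10.1-fold) was exceeded by 0.66% of the probes measured in MF vs CF. The male difference of 0.89 (1.86-fold) was exceeded by 9.75% of the probes measured in MM vs CM. With normexp and quantile normalization the male difference was 0.47, which is not called, and the female difference 3.0. The control arrays differed from each other by 0.44, which was not called. In the limma fit the mean of the female and male differences, which lay 2.45 apart, was 2.12 ± 0.60 (SE). This SE is drawn by limma towards the spread of the other probes. The unadjusted limma p was 0.0073 and the adjusted p 0.998.

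*Insig2* went the other way in females. Unlike *Insig1*, it is not known as a target of SREBP2 in liver, where one of its transcripts is lowered by insulin. Its 2 probes are annotated to different RefSeq transcripts. Whether the probes tell these transcripts apart, and which transcript is the liver-specific one, was not examined here. The brighter probe, A_51_P439452 (chr1:123201085-123201144), had levels of 2.32 on MF against 4.57 on CF, and 3.60 on MM against 3.47 on CM. MF was the lowest array and CF the highest, with the males between them and close to each other. The female difference was -2.26 (4.78-fold lower), and 1.71% of the probes measured had a lower one, while the male difference was 0.12. The dimmer probe, A_55_P1957624 (chr1:123202133-123202192), had levels of 0.97 on MF against 3.21 on CF, and 1.93 on MM against 2.46 on CM. Both microsomic arrays lay below both control arrays on this probe, by 2.24 in females (4.71-fold lower) and by 0.52 in males, where the difference was not called. Its male difference passed 1.5-fold with quantile normalization (-0.61), with the trend in probe GC content removed (-0.64) and with normexp and quantile normalization (-1.43). The control arrays differed as well: CM was lower than CF by 1.10 on the brighter probe and by 0.76 on the dimmer probe.

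Set side by side, the difference of females less that of males was 2.45 for *Insig1*, -2.38 for the brighter *Insig2* probe and -1.71 for the dimmer one. The genes of the 2 retention proteins thus differed between MF and CF in opposite directions. In males the difference was positive for *Insig1*, positive and not called for the brighter *Insig2* probe, and negative and not called for the dimmer one, with the limits given above. Whether the effect differs between genders could not be tested with 1 array in each group.

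**Figure D2:**
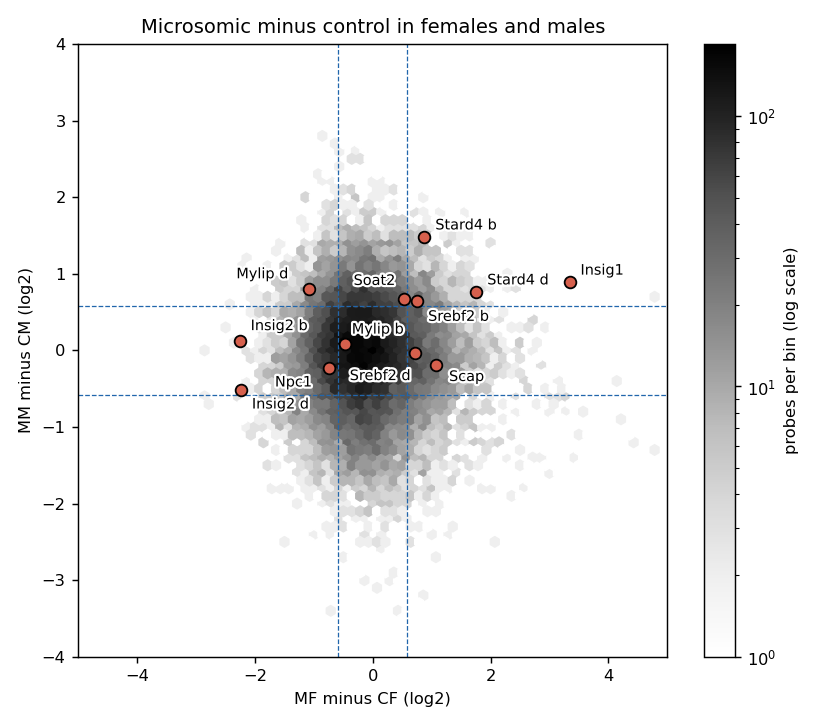
Difference of microsomic minus control in females (x axis, MF minus CF) and males (y axis, MM minus CM), both log2, for the 12 probes (red; b and d mark the brighter and dimmer probe of a gene) over all probes well above background on the 4 arrays (grey, number per bin on a log scale); dashed lines mark 1.5-fold. *Insig1*, the brighter *Srebf2* probe and both *Stard4* probes lie in the upper right, past 1.5-fold in both genders. Both *Insig2* probes lie at the left, at -2.26 and -2.24 on the x axis.

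*Mylip*, which encodes the ubiquitin ligase IDOL that sends lipoprotein receptors to degradation and is induced by the sterol sensor LXR, had 2 probes. The brighter, A_51_P324303 (chr13:45506979-45507038), had levels of 1.23 on MF against 1.71 on CF, and 1.98 on MM against 1.90 on CM. Its differences of -0.48 in females and 0.08 in males were not called. The dimmer, A_52_P248343 (chr13:45503808-45503867), had levels of -2.91 on MF against -1.81 on CF, and -1.68 on MM against -2.48 on CM. It was lower in females by 1.09 (2.13-fold lower) and higher in males by 0.80 (1.74-fold), so the gene was called on its dimmer probe alone, in opposite directions. The probes differed by 0.61 in females and 0.72 in males, more than the median gap between probes of a gene.

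*Stard4* encodes a soluble protein that carries cholesterol between membranes, and the gene is a known target of SREBP2. The brighter probe, A_52_P384574, had levels of 2.63 on MF against 1.76 on CF, and 4.0 on MM against 2.51 on CM. Both microsomic arrays lay above both control arrays, with differences of 0.88 in females (1.84-fold) and 1.48 in males (2.80-fold), and 3.25% of the probes measured had a higher one in males. The dimmer probe, A_52_P561205, had levels of 1.06 on MF against -0.70 on CF, and 1.01 on MM against 0.24 on CM. Here too both microsomic arrays lay above both control arrays, by 1.76 in females (3.39-fold) and 0.77 in males (1.70-fold). How many of all probes show this order of arrays was not computed. The probes put the larger difference in opposite genders, so *Stard4* was higher on these microsomic arrays but the genders are not ordered. The unadjusted limma p was 0.0247 for the brighter probe and 0.0228 for the dimmer one, both with an adjusted p of 0.998.

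*Npc1*, whose product exports cholesterol from the lysosome, was measured by A_51_P349341, with levels of 0.15 on MF against 0.89 on CF, and 0.63 on MM against 0.86 on CM. The microsomic arrays were both below the control arrays, by 0.74 in females (1.67-fold lower) and by 0.24 in males, where the difference was not called and was 0.56 with normexp and quantile normalization. The female call was lost without scaling (-0.34) and with the trend in array position removed (-0.54). *Soat2* encodes an enzyme that esterifies cholesterol for storage and secretion in hepatocytes and enterocytes. Its probe, A_66_P116372 (chr15:101993657-101993716), had levels of 0.96 on MF against 0.42 on CF, and 1.32 on MM against 0.65 on CM. Both microsomic arrays lay above both control arrays, by 0.53 in females (1.45-fold, not called, but between 0.63 and 0.93 in 5 of the other settings) and by 0.67 in males (1.59-fold). The male difference was -0.32 with normexp and quantile normalization.

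**Figure D3:**
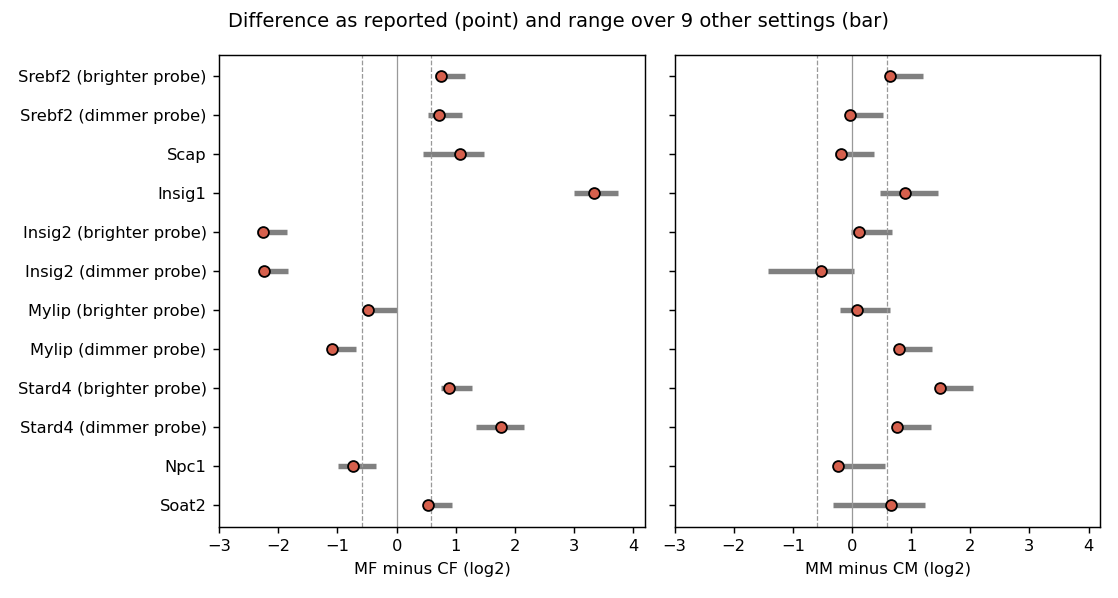
Difference of microsomic minus control (log2; females left, males right) for each of the 12 probes as reported (red point), with the range over the 9 other settings of scaling, background, filter and trend removal (grey bar); dashed lines mark 1.5-fold. *Insig1*, both *Insig2* probes and both *Stard4* probes stay past 1.5-fold in females in every one of these settings. The settings on dim probes and flagged spots could not change these values and left them as reported. The bar of *Soat2* in males crosses 0.

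The enzymes that SREBP2 is known to turn on were compared on the same arrays, each gene by its brightest probe. Of 9 enzymes of the mevalonate pathway 8 were measured, and 7 were higher in MF than in CF (median 2.03) while all 8 were higher in MM than in CM (median 0.85). Over all genes the medians were -0.11 and -0.07, with 19.9% and 17.7% of the genes higher and 21.1% and 23.1% lower. *Hmgcs1*, which makes the substrate of the rate-limiting step, was higher by 2.03 in females and 1.40 in males. *Pmvk*, a kinase of the pathway, was higher by 3.44 and 0.83, and *Mvd*, the decarboxylase that follows it, by 2.51 and 1.60. Of 11 enzymes of late sterol synthesis, 8 were higher and 0 lower in females (median 1.55), and 8 were higher and 1 lower in males (median 0.75). *Lss*, which closes the sterol rings, was higher by 2.17 and 2.26. *Cyp51*, which removes a methyl group of lanosterol, was higher by 2.03 and 3.0, and *Msmo1*, an oxidase of the following steps, by 2.67 and 1.60. *Cyp51*, like the brighter *Stard4* probe, had the larger difference in males. Promoter windows were found for 15 of the enzymes, of which 14 held CCAAT and 1, *Hmgcs1*, held TCACCCCA, beside shares of 41.1% and 1.77% among all genes with a window.

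The proteases, coat proteins and ubiquitin machinery that process SREBP or degrade INSIG proteins make up 18 further genes. Of these, 0 were higher and 6 lower in females (median -0.31, but 0.09 without scaling), and 4 were higher and 2 lower in males (median 0.13). *Sec23a*, a subunit of the coat of the vesicles that carry SCAP, was lower by 0.77 in females and 1.15 in males. *Erlin1*, an adaptor in INSIG and reductase degradation, was lower by 0.60 in females, and in males its difference of -0.56 was not called. *Spring1*, a cofactor of SREBP processing, had differences of 0.42 and 0.48, which were not called.

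Among 20 genes of sterol transport and storage, 10 were higher and 0 lower in females (median 0.53), and of the 19 measured in males 4 were higher and 2 lower (median 0.28). *Vldlr*, a lipoprotein receptor, was higher by 1.28 in females and 1.02 in males, and *Tmem97*, which binds NPC1, by 0.92 and 1.31. *Osbpl2*, a lipid transfer protein, had a difference of -0.02 in females and was higher by 1.85 in males. *Npc1l1*, the sterol importer of the intestinal brush border, was chosen for mention after its values were seen: it was well above background on MF alone and at least 19.7-fold higher there than on CF. In this it was like *Cdx2* and *Alpi* of the intestinal list, and its part in the results was not tested.

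LXR acts opposite to SREBP2, since it is switched on by sterols and drives their export. Of 9 genes listed for LXR, its targets and the bile acid receptor FXR, 8 were measured, with 2 higher and 3 lower in females (median -0.24, but 0.16 without scaling) and 1 higher and 1 lower in males (median 0.06, but -0.25 with normexp and quantile normalization). *Abcg5* and *Abcg8*, whose products form the pump that sends sterols into bile, were lower in females by 2.11 and 1.18, with differences of 0.03 and 0.08 in males. The other lower gene was *Nr1h4* (-0.71), which encodes FXR and is neither an LXR nor known as its target. *Lpcat3*, which remodels phospholipids, was higher by 1.14 in females, with 0.27 in males. The other higher gene in females, *Abcg1*, also listed as an LXR target, is named after its values were seen. It was higher by 0.61 in females and lower by 1.22 in males, so the listed targets did not all go one way. The levels of *Abcg5* were 1.46 on MF against 3.57 on CF, and 2.35 on MM against 2.32 on CM, the same order of arrays as for the brighter *Insig2* probe, with the male arrays 0.03 apart. Of 14 genes of fatty acid synthesis, driven by the related factor SREBP1, 10 were higher and 2 lower in females (median 1.23), and 5 were higher and 3 lower in males (median 0.46). *Fasn*, *Acly* and *Elovl6* were higher in females by 3.17, 3.08 and 1.99. In males *Fasn* and *Elovl6* were higher by 0.85 and 1.39, and the difference of 0.35 of *Acly* was not called. The 3 genes lower in males are named here after their values were seen. *Thrsp* and *Scd1* were lower in males by 2.84 and 2.43, but higher in females by 1.37 and 0.89. *Acacb* was lower in both, by 1.13 in males and 0.60 in females.

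**Figure D4:**
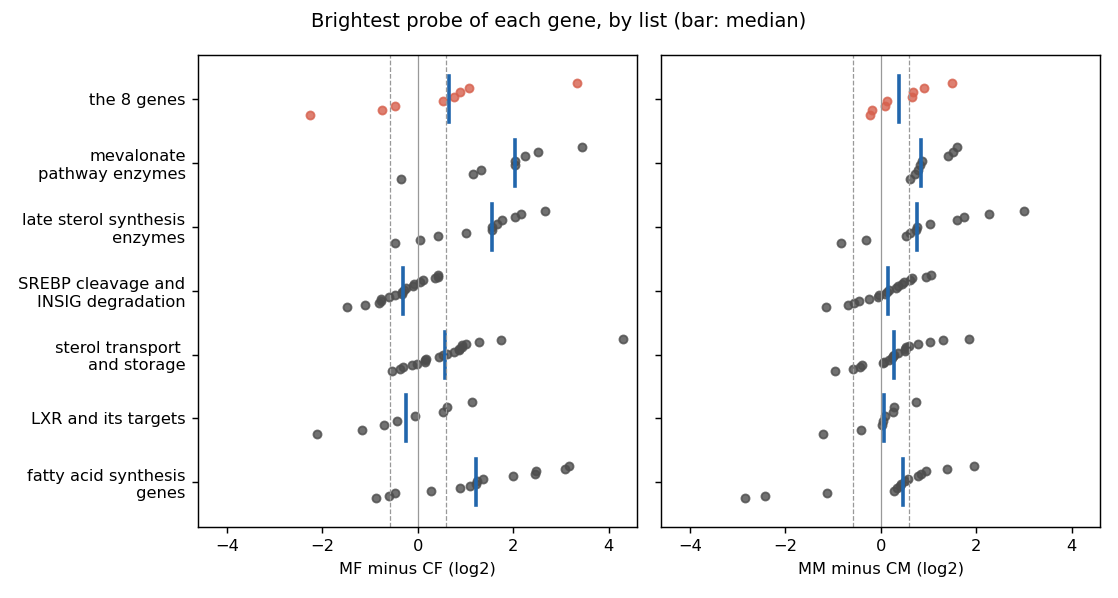
Difference of microsomic minus control (log2; females left, males right) of each gene by its brightest probe, for the 8 genes (red) and for 6 lists of related genes (grey); blue bars are medians and dashed lines mark 1.5-fold. The mevalonate pathway has medians of 2.03 and 0.85, while the cleavage and degradation genes have medians of -0.31 (0.09 without scaling) and 0.13.

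For the 3 genes whose brightest probe was called the same way in both genders, the nearest profiles over the 4 arrays were sought. The search covered 19302 names of the array annotation, some of which are not gene symbols. It used the Euclidean distance between log2 levels, each centred on its own mean. With 4 arrays many genes come close. The nearest to *Insig1* were *Fasn* (distance 0.26), 2610019F03Rik (*Tdrp* in RefSeq, 0.31) and *Foxq1* (0.52). The differences of *Fasn* were 3.17 in females and 0.85 in males, beside 3.34 and 0.89 for *Insig1*. The nearest to *Srebf2* were a probe named only by its position on chromosome 8 (0.05), *Tcirg1* (0.06) and NAP111475-1 (0.07). Those to *Stard4* were NAP114441-1 (0.23), *Pbld2* (0.24) and *Timd2* (0.24).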

How the data were processed

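Liver RNA of 4 samples, 1 per group, was measured on 1-colour Agilent arrays. The authors read the scans in Feature Extraction 10.7.3.1 of Agilent. The deposited processed signal is a linear intensity, background-subtracted and detrended by the software but not normalized between arrays, and the deposited table of values equals it in all 62976 spots. The number of arrays limits the precision.

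The 75th percentile of the log2 signal over 59305 non-control spots was subtracted on each array. Spots that carried a non-uniformity or population outlier flag anywhere (1754) were dropped from all arrays, and spots of a probe were averaged. A difference was taken where at least 1 array of the pair was well above background, as a lower bound where the other was not. Medians used probes well above background on both arrays. limma 3.58.1 (R 4.3.3) was fitted to all 4 arrays with gender as a term and Benjamini-Hochberg adjustment, and was tested on simulated data. Lists were described by counts and medians. C/T windows are 5 bases with at least 3 C and the rest C or T. Positions follow the array annotation (mm9), and the accessions of all 12 probes matched their symbols in RefSeq.

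All probes of the 8 genes are named. From each list the 3 genes with the largest mean difference were named, and for each gene called alike in both genders by its brightest probe the 3 nearest profiles. Of the markers, *Tdo2*, *Tff3* and those on MF alone were named, after their values were seen. So were *Npc1l1*, *Abcg1* and the genes of fatty acid synthesis that were lower in males. The genes and lists were chosen with earlier results of these data known. Alternatives covered scaling, background correction, the filter on dim probes, flagged spots, the fold threshold, the probe of a gene, trends with GC content and array position, and the limma model.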

Additional observations from a re-analysis of the deposited data

Results flagged for a closer look

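The dimmer *Mylip* probe, A_52_P248343, was lower in females and higher in males, and its female difference less its male difference was -1.89 (log2). The array pairs of the 2 genders moved in opposite directions past 1.5-fold, with 1 array in each group. The difference between the genders was not tested. Processed signals of this probe were low, at 119 on MF and 113 on CM. The brighter *Mylip* probe was not called in either gender (-0.48 in females and 0.08 in males).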

How the results depend on the processing

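Of the 12 probes, at 2-fold 6 were called in MF vs CF (against 10) and 1 in MM vs CM (against 6). Counted by gene, 6 were called in females and 4 in males by the brightest probe, and 7 and 3 by the mean over probes. By the brightest probe at 1.5-fold, 19.9% of all genes were higher and 21.1% lower in females. In males these shares were 17.7% and 23.1%. The shares of all probes past 2-fold, and of all genes by the mean over probes, were not computed. With normexp and quantile normalization the male difference of *Soat2* was -0.32, and the female median of the mevalonate pathway was 1.53. In the deposited values without scaling the male medians were 1.41 for the mevalonate pathway, 1.31 for late sterol synthesis, 0.69 for cleavage and degradation, 0.84 for transport, 0.62 for LXR and 1.02 for fatty acid synthesis, since all male differences rise alike and the median of all genes becomes 0.49. At an unadjusted limma p under 0.01 with a 1.5-fold change, 1 of the 12 probes (*Insig1*) and 210 of all probes were called. limma called 13 probes with centring on the median and 36 without scaling, 0 of the 12 in either. Except for the scaling, the causes were not tested. Gender, a term of the limma fit, is the only block. The labels give no replicate numbers by which to pair arrays otherwise, and leaving out an array ends its comparison.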
